A study of Bos taurus with 21 samples.

Results

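Foetal muscle of 2 cattle breeds was compared at 210 days post-conception (dpc), the Blonde d'Aquitaine (BA), which is known for its muscularity, and the Charolais (CH). All arrays labelled with this stage were taken, 3 BA and 3 CH, which are 6 of the 21 arrays of the series. The RNA of 1 foetus, labelled with Cy3, went on each array, so n counts foetuses. The foetuses came from artificial insemination within each breed, and no treatment was applied. The BA foetuses at 210 dpc were 2 females and 1 male of 2 sires, and the CH foetuses were 1 female and 2 males of a single sire. CH sire and CH breed therefore cannot be told apart at this stage. The BA foetuses were not genotyped for the *MSTN* mutation that occurs in the breed, so BA stands for a breed and not for a genotype. The sample labels name the muscle *m.* *Longissimus thoracis*, whereas the methods of the study name *m.* *Semitendinosus*.

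Foetal muscle grows in 2 overlapping ways, by making myoblasts that fuse into fibres and by maturing the fibres that exist. During maturation, fibres exchange embryonic and foetal contractile proteins for adult slow or fast isoforms and build up their energy metabolism. Myostatin, the product of *MSTN*, is a secreted member of the transforming growth factor beta family that restrains muscle growth, and cattle with defective alleles have enlarged muscles with more fast glycolytic fibres.

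Levels are normalized log2 intensities of single probes, scaled by the 75th percentile of each array, with 0 set at the level of a typical array's median probe. A breed difference is always BA minus CH on this log2 scale, so 1 is a 2-fold difference. Between 29017 and 34223 probes were well above background on the 6 arrays. CH replicate 3 had the fewest, and it was the only array of 210 dpc on its slide and on its scan day. What sets this foetus apart therefore cannot be told apart from slide and scan day. The 9 tested markers of skeletal muscle lay at similar levels in both breeds, as for *ACTA1*, the skeletal actin, with 11.1, 11.21 and 11.27 in BA and 11, 11.47 and 11.46 in CH. Their median difference was −0.09, and none of the 9 had 3 BA values clear of the 3 CH values. As these are bulk samples, fewer cells of a type and less RNA per cell cannot be told apart in any result.

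The breeds were close to each other at 210 dpc. Of 20132 tested probes, 0% passed a limma adjusted p of 0.05. The lowest adjusted p was 0.056, and 5 probes were below 0.1. At an unadjusted p under 0.05 there were 1054 probes, 5.24% of those tested, and at 0.01 there were 267 (1.33%). The SD of the breed differences over all tested probes was 0.23, and 100 probes differed by at least 1. In the same model, with the same spread, 55 probes passed at 110 dpc, 2 at 180 dpc and 0 at 260 dpc, where 1075 had an unadjusted p under 0.05. As a description, the difference at 210 dpc correlated across the 20132 probes with that at 110 dpc (Pearson's r = 0.268), 180 dpc (0.218) and 260 dpc (0.153). These stages share no arrays with 210 dpc but share the array design, the probes, some slides and sires. Agreement between stages therefore cannot tell a breed from its few sires.

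To describe the probes that stood farthest apart, 3 conditions were combined, an unadjusted p under 0.01, no overlap between the 3 BA and the 3 CH values, and a difference of at least 1. These were met by 26 probes (0.129% of those tested), 16 higher in BA (0.0795%) and 10 lower (0.0497%). For comparison, 5.62% of the tested probes had all BA values above all CH values and 4.91% had all below. Of the 26 probes, 7 have no gene name here, and 14 of the genes named by the others are described below by what they do, and since no probe passed the adjustment, each is a measured difference and not a called change. Just inside the size limit lay *DNAJC15* (1.01) and *BMPR1B* (1.03), and just outside lay *DHRS3* (0.97), *TBXA2R* (0.95) and both probes of *APOA1* (−0.93 and −0.92).

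**Figure D1:**
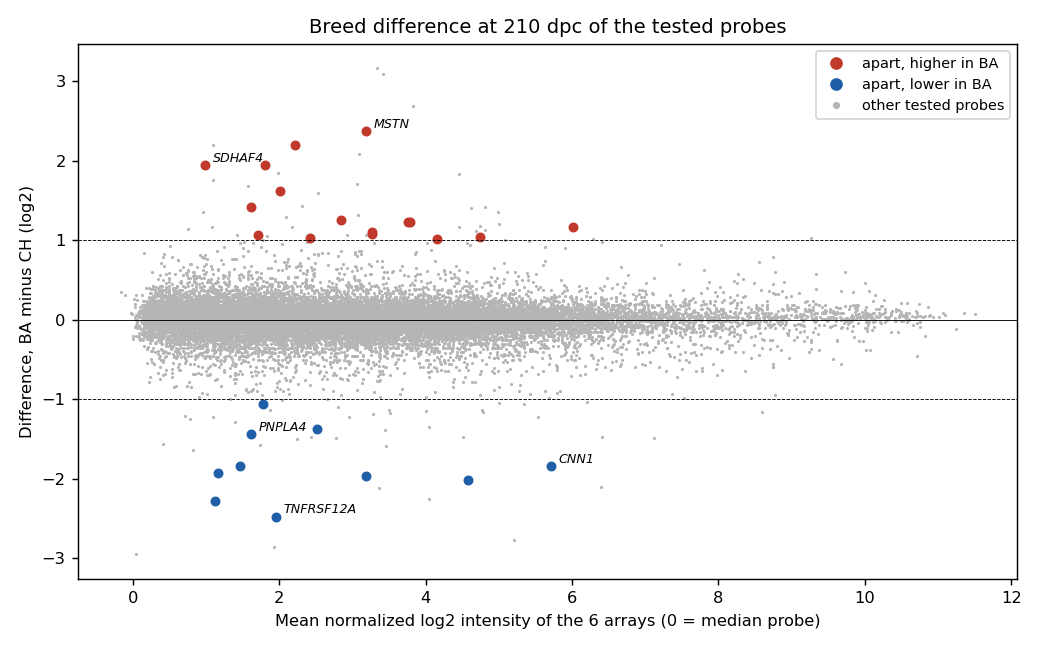
Breed difference at 210 dpc (y axis, log2, BA minus CH) against the mean level of the 6 arrays (x axis, normalized log2 intensity) for the 20132 tested probes. Red and blue points are the 16 and 10 probes apart between the breeds, dashed lines mark a difference of 1 in either direction, and 5 of the genes described in the text are labelled; most probes lie close to 0 at every level.

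*MSTN* was the gene with the largest difference among the 16 higher probes. Its probe A_73_P036291 read 4.57, 4.39 and 4.17 in the BA foetuses and 1.8, 2.35 and 1.85 in the CH foetuses. The lowest BA value was well clear of the highest CH value. The difference was 2.37 (SE 0.40), a 5.18-fold higher level, with an unadjusted p of 1.59e-05 and a limma adjusted p of 0.075. The second probe, A_73_120254, read 3.51, 3.51 and 2.93 in BA and 0.91, 1.57 and 0.91 in CH, a difference of 2.19 (SE 0.37, limma adjusted p = 0.075). An exact permutation test over the 6 foetuses gave p = 0.1 for either probe, two-sided, which is the smallest p that 3 against 3 can give. Both probes passed with several other settings (in limma, adjusted p = 0.0048 on the authors' unscaled values), and the difference stayed between 1.96 and 2.67 in all settings. The same gap was seen at the other stages, with 1.8, 1.71 and 2.11 for A_73_P036291 at 110, 180 and 260 dpc. Sires of the 210 dpc foetuses recur at each of these stages. Over all 21 arrays, the breeds did not overlap for 4 of the 20132 tested probes (0.0199%), which were both *MSTN* probes, 1 probe of *RNF121* and an unnamed probe. The last 2 were looked up after their values were seen.

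Other genes of the myostatin and activin pathway lay close together. Of 10 genes tested beside *MSTN*, 1 was higher in BA and 9 lower, with a median of −0.12 against −0.01 for the 7932 named genes tested. *ACVR2B*, which encodes a receptor that binds myostatin, read 2.88, 2.88 and 2.35 in BA and 2.49, 2.53 and 2.1 in CH, so the breeds overlapped (difference 0.33, unadjusted p = 0.0419). The inhibitor *FST* (follistatin) differed by −0.04 and the inhibitor *FSTL3* by −0.30. The signal transducers *SMAD2*, *SMAD3* and *SMAD4* differed by −0.10, −0.14 and −0.01.

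**Figure D2:**
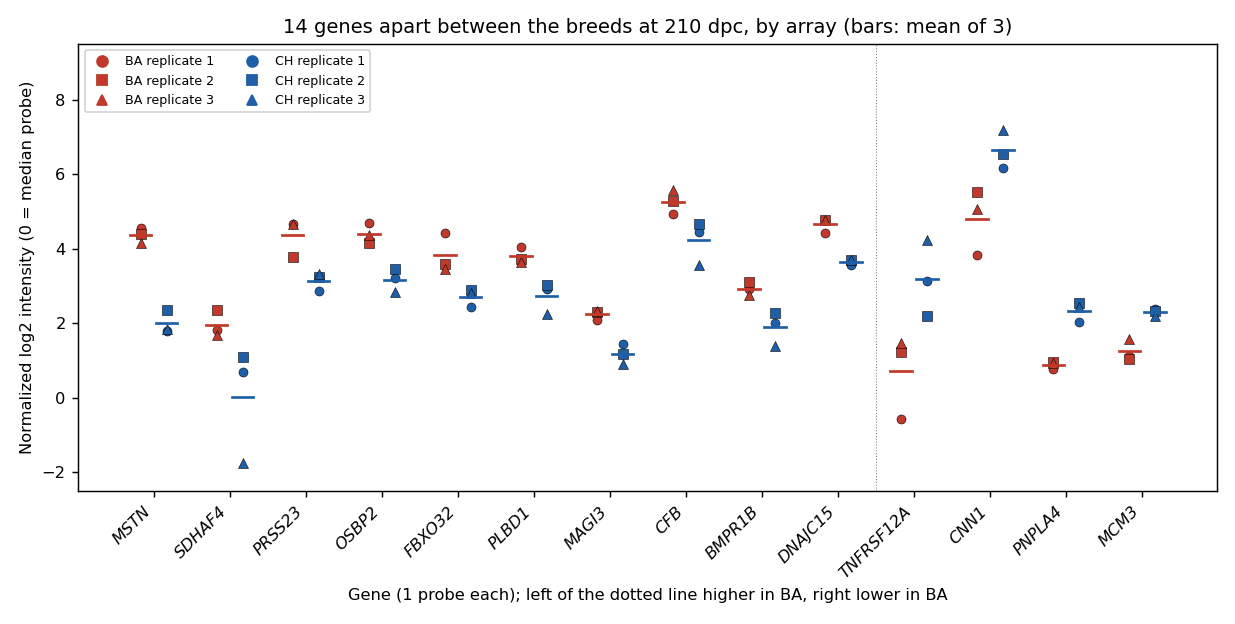
Level of 14 named genes apart between the breeds at 210 dpc (y axis, normalized log2 intensity), 1 probe a gene, with each array as a point and the mean of 3 arrays as a bar. The 10 genes left of the dotted line were higher in every BA foetus (red) than in any CH foetus (blue) and the 4 to the right lower; CH replicate 3 stands away from the other CH foetuses for *SDHAF4*.

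Genes of protein turnover and metabolism were among those higher in BA. *FBXO32* (atrogin-1), a muscle ubiquitin ligase of the atrophy programme, read 4.42, 3.59 and 3.46 in BA and 2.45, 2.9 and 2.81 in CH, a difference of 1.1 (SE 0.33, unadjusted p = 0.00363). It was 0.18, −0.08 and 0.14 at 110, 180 and 260 dpc. *TRIM63* (MuRF1), the other well known atrophy ligase, differed by −0.30, and the list of 10 proteolysis genes had a median of 0.02. *SDHAF4*, an assembly factor of mitochondrial complex II, read 1.82, 2.37 and 1.69 in BA and 0.69, 1.11 and −1.74 in CH. The difference of 1.94 (SE 0.56) rested in part on CH replicate 3 and was 1.06 without it. *DNAJC15*, a mitochondrial co-chaperone, differed by 1.01 and was higher in BA at the other stages too (0.52, 0.43 and 1.06). *OSBP2*, an oxysterol-binding protein, and *PRSS23*, a serine protease, each differed by 1.23 (SE 0.30 and 0.25). *PRSS23* read 4.67, 3.78 and 4.67 in BA against 2.86, 3.25 and 3.32 in CH, and its differences at 180 and 260 dpc were 0.95 and 1.16 but −0.12 at 110 dpc. *PLBD1*, a phospholipase B-like protein, differed by 1.08.

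Genes of signalling and immunity made up the rest of the named genes higher in BA. *BMPR1B*, a receptor for bone morphogenetic proteins, read 2.92, 3.12 and 2.76 in BA and 2.02, 2.29 and 1.39 in CH (difference 1.03). Its second probe, at similar brightness, differed by −0.21, so the probes of this gene disagreed. *MAGI3*, a scaffold protein of cell junctions, differed by 1.06 (SE 0.22, unadjusted p = 0.000129) on one probe and by 0.22 on the other. *CFB*, factor B of the alternative complement pathway, differed by 1.04 and 0.85 on its probes. Its brighter probe read 4.94, 5.29 and 5.57 in BA and 4.46, 4.66 and 3.56 in CH.

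The genes lower in BA described here were a pair with tight values and a pair with scattered ones. *PNPLA4*, a lipase with retinyl ester and triglyceride hydrolase activity, read 0.78, 0.96 and 0.95 in BA and 2.03, 2.55 and 2.45 in CH. The difference of −1.44 (SE 0.23) had an unadjusted p of 1.11e-05 and a limma adjusted p of 0.075, and it passed in some settings (0.049 with quantile normalization and 0.046 with median scaling). At the other stages the difference was 0.46, 0.72 and −0.04, so the low BA values were seen at 210 dpc and not at the others. *PNPLA4* also had the lowest p of all probes in the test of the difference at 210 dpc against the mean of the other stages (−1.82), with a limma adjusted p of 0.11. *MCM3*, a subunit of the replicative helicase, read 1.13, 1.04 and 1.57 in BA and 2.39, 2.33 and 2.2 in CH, a difference of −1.06 (SE 0.20). It was lower in BA at every stage (−0.57, −1.16 and −0.67), and the mean over these 3 stages passed with a limma adjusted p of 0.015.

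*TNFRSF12A*, the receptor for the cytokine TWEAK, and *CNN1* (calponin), an actin-binding protein of smooth muscle, varied more from foetus to foetus. *TNFRSF12A* read −0.56, 1.23 and 1.48 in BA and 3.15, 2.2 and 4.25 in CH on its probe with the lowest p, and its 3 probes differed by −2.48, −1.97 and −2.02. *CNN1* read 3.83, 5.53 and 5.06 in BA and 6.18, 6.56 and 7.19 in CH, a difference of −1.84 (SE 0.45). In both genes CH replicate 3 was the highest of the 6 and BA replicate 1 the lowest. At the other 3 stages the differences of these genes lay between −0.23 and 0.44 on every probe. The stress and immediate early genes were split between the breeds, with 8 of 20 tested genes higher in BA, 12 lower and a median of −0.13. Their mean deviation from the mean of the 6 arrays was lowest in BA replicate 1 (−0.48) and highest in CH replicate 3 (0.43). CH replicate 3 was the highest of the 6 in 8 of these genes and BA replicate 1 the lowest in 12, with both in 5. Among the genes with both, *ATF3*, a stress-induced transcription factor, read 2.1, 3.87 and 5.34 in BA and 5.15, 2.94 and 7.64 in CH. *HSPH1*, a heat shock protein, was the only gene of the list without overlap (−0.84, unadjusted p = 0.00712), where 5.65% of all named genes were lower in BA without overlap. *FOS*, an immediate early transcription factor, differed by 0.41 and was highest in BA replicate 2. The part of such a response in *TNFRSF12A* and *CNN1* was not tested.

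The 7 unnamed probes included the one with the lowest p of all. A_73_113618 read 2.82, 1.88 and 2.3 in BA and 1.11, 0.74 and 0.88 in CH, a difference of 1.42 (SE 0.21, limma adjusted p = 0.056). It passed in some settings, with a limma adjusted p of 0.04 when probes were filtered on detection and 0.0042 without BA replicate 2. A_73_P074436 read −0.07, −0.03 and 0.07 in BA and 2.22, 2.28 and 2.32 in CH. On all 21 arrays this probe took either a value of at most 0.53 or one of at least 2.21, and both kinds of value occurred in both breeds. At 210 dpc the split was by breed, whereas at 180 dpc the BA foetuses read 2.21 and −0.08. The SE of its difference, 0.74, comes from this spread at the other stages, and the limma adjusted p was 0.68. When A_73_P074436 was fitted on the 6 arrays of 210 dpc alone, which leaves that spread out, the limma adjusted p was 0.00048.

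Of the 26 probes, all 16 higher in BA were also higher on the mean of the other 3 stages. The 3 that passed there were both *MSTN* probes and the unnamed A_73_106483. The 10 lower in BA kept that sign in 4 cases, with 1 that passed. Of all tested probes 0.124% passed there. The 26 were picked with a spread shared by all stages, so this share is not an even reference. Across all tested probes the difference at 210 dpc correlated with that mean (Pearson's r = 0.336). A breed difference particular to 210 dpc was not detected. In the test of the difference at 210 dpc against the mean of the other stages 0% of the tested probes passed in limma, and 4.84% had an unadjusted p under 0.05.

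**Figure D3:**
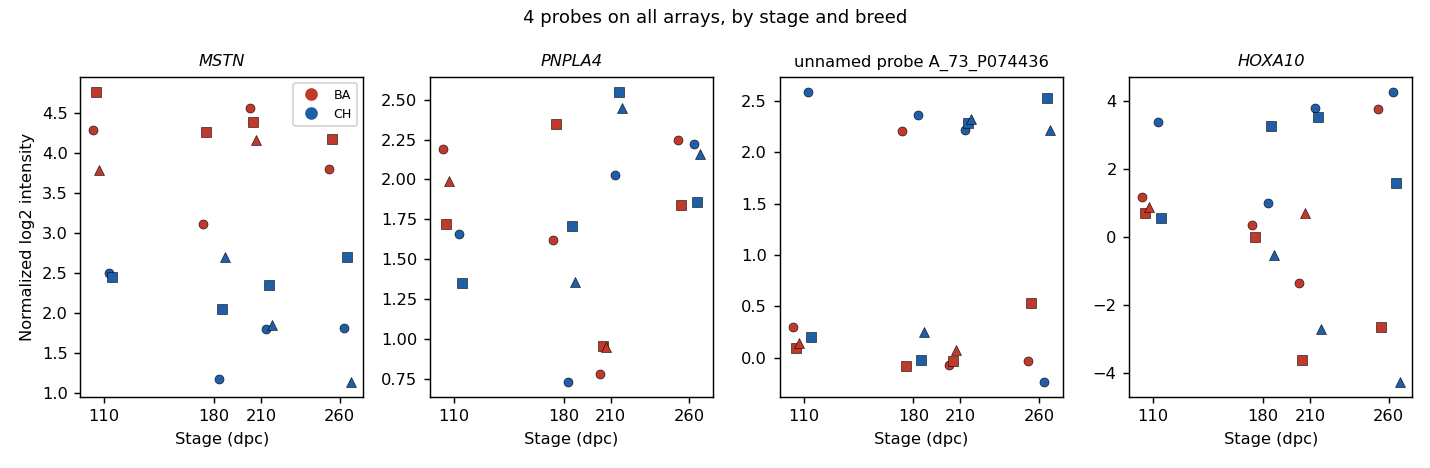
Levels (y axes, normalized log2 intensity, scaled apart) of 4 probes on all 21 arrays by stage in dpc (x axis), with BA in red and CH in blue and the shape of a point giving the replicate number. *MSTN* lay higher in BA at each stage, *PNPLA4* lay lower in BA at 210 dpc and not at the other stages, the unnamed probe took 2 separate levels in both breeds, and *HOXA10* varied widely among foetuses of one breed and stage.

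The contractile genes of slow fibres tended to lower levels in BA, but the foetuses overlapped. Of 11 slow fibre genes tested, 10 were lower in BA and 1 higher, with a median of −0.49 against −0.01 over all named genes. Without overlap were 0 genes higher and 1 lower, where 4.85% and 5.65% of all named genes were so. At an unadjusted p under 0.05 there were 3, all lower, where 2.37% of all named genes were higher and 3.11% lower. *MYH7*, the slow myosin heavy chain, read 9.91, 9.1 and 9.21 in BA and 9.97, 9.59 and 10.31 in CH, a difference of −0.55 (SE 0.23, limma adjusted p = 0.88). *TNNC1*, the slow troponin C, read 9.82, 8.95 and 9.15 in BA and 9.94, 9.28 and 10.19 in CH (−0.49, limma adjusted p = 0.94). *TPM3*, the slow tropomyosin, differed by −0.55 on its brightest probe. Its dimmest probe went the other way (1.29, with overlap), and the rest of its probes were lower in BA. *CSRP3*, a muscle LIM protein of the Z-disc, differed by −0.63.

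In the slow fibre genes BA replicate 1 was near CH replicates 1 and 3, and CH replicate 2 lay between these and the other BA foetuses. The mean deviation of the list was 0.18, −0.41 and −0.29 in BA and 0.28, −0.05 and 0.29 in CH. Slides 4 and 6 each held 1 BA and 1 CH foetus of 210 dpc. Within slide 4 *MYH7* was higher in BA by 0.32, and within slide 6 it was lower, by −0.87. The median of the list was −0.25 without BA replicate 2 and −0.30 without CH replicate 3. The medians at the other stages were −0.07 (110 dpc), −0.23 (180 dpc) and −0.04 (260 dpc). The calsequestrin *CASQ2*, which stores calcium in slow and cardiac muscle, was the slow fibre gene higher in BA (0.26).

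Fast and embryonic fibre genes were near equality. The 10 fast fibre genes had a median of 0.06, with 7 higher and 3 lower in BA. *CASQ1*, the fast calsequestrin, read 6.22, 6.23 and 6.11 in BA and 5.8, 6.03 and 5.9 in CH without overlap (0.28, unadjusted p = 0.112). *MYH1*, the adult IIX heavy chain, differed by −0.95 (unadjusted p = 0.0401) on its brightest probe at 210 dpc, by −0.01 on the probe that is brightest over all 21 arrays and stands for it in the list, and by −0.09 on the last. On the probe with −0.95, BA replicate 2 at 6.97 lay below the other 5 foetuses, which read 8.63 to 9.54. The 8 embryonic fibre genes had a median of 0.12. The embryonic heavy chain *MYH3* differed by 0.04, and the embryonic light chain *MYL4* read 7.85, 8.03 and 6.49 in BA and 7.63, 8.28 and 8.4 in CH (−0.65, SE 0.45). *ACTC1*, the cardiac actin that foetal skeletal muscle also makes, differed by −0.46 (unadjusted p = 0.0278) with overlapping breeds.

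The 7 myogenic regulators tested had a median of 0.12. *MYMK* (myomaker), needed for the fusion of myoblasts, read 3.17, 2.85 and 3.28 in BA and 1.99, 3.42 and 1.97 in CH (0.64, unadjusted p = 0.035), so CH replicate 2 exceeded every BA foetus. *MYOD1*, a determination factor of the muscle lineage, ranged from 4.06 to 5.64 in BA and from 4.17 to 7.61 in CH (−1.22, unadjusted p = 0.161).

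**Figure D4:**
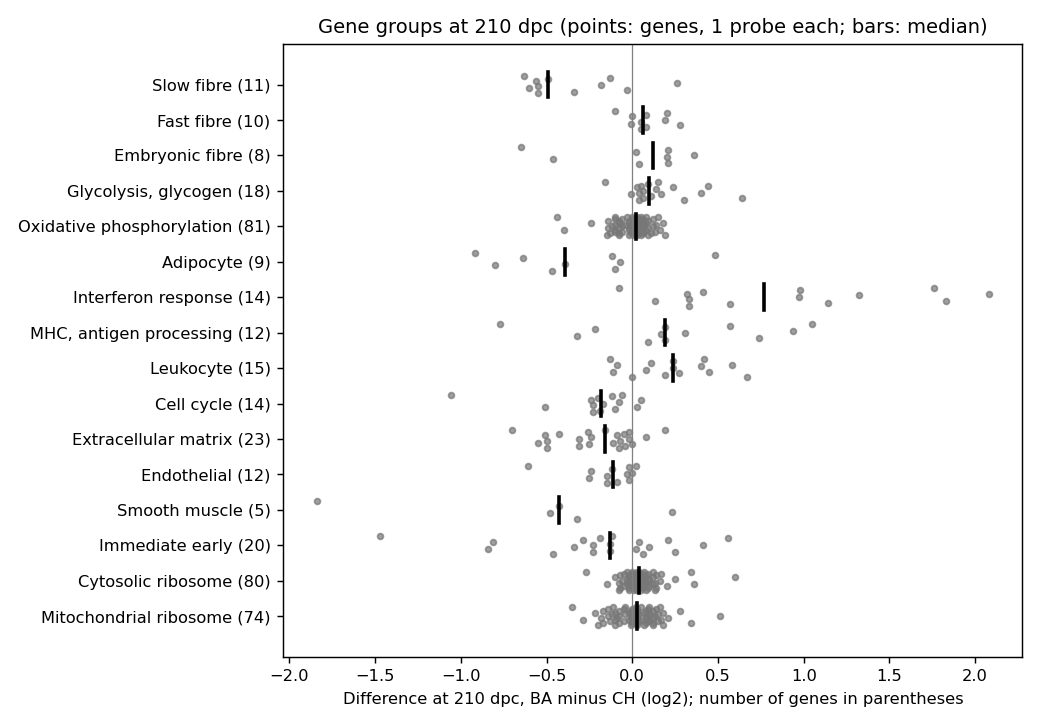
Breed difference at 210 dpc (x axis, log2, BA minus CH) of the genes of 16 lists, with 1 probe a gene as a point, the median as a bar and the number of tested genes in parentheses. Of these lists interferon lay farthest to the right (median 0.77) and the slow fibre list farthest to the left (−0.49), while the lists of oxidative phosphorylation and of both ribosomes centred near 0.

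Genes of glucose use tended to slightly higher levels in BA, but the foetuses overlapped. Of 18 genes of glycolysis and glycogen metabolism, 16 were higher in BA and 2 lower, where 46.6% of all named genes were higher, with a median of 0.10. Without overlap were 2 higher and 1 lower, where 4.85% and 5.65% of all named genes were so. The mean deviation of the list was 0.18, −0.05 and 0.1 in BA and −0.14, 0.07 and −0.17 in CH. *PHKG1*, the catalytic subunit of muscle phosphorylase kinase, which starts glycogen breakdown, read 3.1, 2.88 and 2.4 in BA and 1.98, 2.1 and 2.38 in CH (0.64, SE 0.24, unadjusted p = 0.0184). *PFKFB1*, which sets the level of the activator of phosphofructokinase, differed by 0.44 (unadjusted p = 0.0388). *PGK1*, a glycolytic kinase, was lower in every BA foetus, by −0.16 on average. The median of the list was 0.04 with the authors' unscaled value table, which moved all tested probes by −0.056.

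Genes of respiration lay nearer to equality. The 81 genes of oxidative phosphorylation had a median of 0.02, with 48 higher and 33 lower in BA, where 46.6% of all named genes were higher. At an unadjusted p under 0.05 there were 0 of them. The 14 genes of the citrate cycle had a median of 0.03. *CKMT2*, the mitochondrial creatine kinase of muscle, read 3.79, 3.28 and 3.98 in BA and 4.42, 3.85 and 3.76 in CH (−0.32, SE 0.23). The 18 genes of fatty acid oxidation had a median of 0.02 and ran from −1.1 to 0.26, with 11 higher and 7 lower. Without overlap were 1 higher and 1 lower, where 4.85% and 5.65% of all named genes were so. The higher one was *ECI1*, an enzyme of unsaturated fatty acid oxidation (0.26, unadjusted p = 0.048). The medians of the cytosolic (80 genes) and mitochondrial (74 genes) ribosomal proteins were 0.04 and 0.03. Higher in BA were 58 and 44 of these genes, and lower 22 and 30. Without overlap were 5 and 6 higher and 0 lower, against 4.85% and 5.65% of all named genes.

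Genes of adipocytes were mostly lower in BA. Of 9 tested, 8 were lower, where 53.4% of all named genes were lower, and the median was −0.39. Without overlap were 2 lower and 1 higher, against 5.65% and 4.85% of all named genes. *PPARG*, the regulator of adipocyte formation, read 1.39, 1.41 and 1.23 in BA and 2.27, 1.88 and 2.28 in CH. The difference of −0.80 (SE 0.18) had an unadjusted p of 0.000361. *ELOVL6*, a fatty acid elongase, differed by −0.47, also without overlap (unadjusted p = 0.00976). *CIDEA*, a protein of lipid droplets, went the other way, with 2.38, 2.36 and 2.21 in BA and 1.68, 2.11 and 1.72 in CH (0.48, unadjusted p = 0.018). *FABP4*, an abundant marker of adipocytes, ranged from −0.57 to 1.7 in BA and from 1.04 to 1.84 in CH (−0.92, SE 1.11). The summed level of the adipocyte markers did not follow breed, with a log2 sum of 8.41 to 8.74 in BA and 8.28 to 9.87 in CH. The median of the list was −0.19 without CH replicate 1.

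Interferon-induced genes were higher in BA, and one foetus carried most of the gap. Of 14 tested, 13 were higher in BA, where 46.6% of all named genes were higher, with a median of 0.77. Without overlap were 5 of the 13, against 4.85% of all named genes. *OAS1Y*, an antiviral oligoadenylate synthetase, read 3.2, 2.76 and 6.41 in BA and 2.7, 1.57 and 1.87 in CH (2.08, SE 1.27, unadjusted p = 0.12). *IFI27* read 3.91, 4.21 and 8 in BA and 3.51, 3.33 and 3.78 in CH (1.83, SE 1.15). BA replicate 3 deviated by 1.57 on average over the list, whereas the other BA foetuses were at −0.09 and −0.18 and the CH foetuses between −0.53 and −0.27. Without BA replicate 3 the median was 0.14. This foetus was the only one of 210 dpc on its slide and the only BA male of that stage. The part of either was not tested. *B2M*, the light chain of class I histocompatibility molecules, read 7.62, 6.88 and 8.56 in BA and 6.87, 6.52 and 6.86 in CH (0.94). The 12 genes of antigen processing had a median of 0.19 and the 15 leukocyte genes 0.24. The log2 summed level of the leukocyte genes was 8.24, 8.12 and 8.46 in BA and 7.99, 8.09 and 8.1 in CH, and its part in the interferon values was not tested.

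Cell cycle and connective tissue genes were slightly lower in BA. Among all named genes 53.4% were lower in BA and 5.65% lower without overlap. Of 14 cell cycle genes, 12 were lower, 4 of them without overlap, with a median of −0.18. *UBE2C*, a ubiquitin-conjugating enzyme of mitosis, read 1.69, 1.77 and 1.62 in BA and 2, 2.42 and 2.17 in CH (−0.51, unadjusted p = 0.0176). Next to *MCM3*, the other helicase subunits *MCM4*, *MCM5*, *MCM6* and *MCM7* differed by −0.06, −0.08, −0.19 and 0.05. Of 23 matrix genes, 21 were lower, 3 of them without overlap, with a median of −0.16. *THBS4*, a thrombospondin of tendon and muscle attachments, read 5.63, 6.23 and 5.41 in BA and 6.32, 6.24 and 6.81 in CH (−0.70). CH replicate 3 had the highest mean deviation of the matrix list (0.39), and the median was 0 without it. The 3 tested genes of tendon and cartilage, *COL11A1*, *COL2A1* and *TNMD*, were lower on average in BA with overlap, with a median of −0.74, and CH replicate 3 was again the highest (mean deviation 1.5).

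Among vascular genes *VWF*, the von Willebrand factor of endothelial cells, was lower in every BA foetus than in any CH foetus. It read 2.74, 2.59 and 2.46 in BA and 3.42, 3.05 and 3.16 in CH (−0.61, SE 0.16, unadjusted p = 0.00106). The 12 endothelial genes had a median of −0.11. Of these, 10 were lower in BA, 2 of them without overlap, where 53.4% and 5.65% of all named genes were so. *PECAM1* and *CDH5*, both adhesion molecules of the endothelium, differed by −0.12 and 0. Of the 5 smooth muscle genes, which include *CNN1*, 4 were lower in BA, with a median of −0.43 that was −0.04 without CH replicate 1. The log2 summed level of the smooth muscle genes was 7.8, 8.28 and 7.76 in BA and 8.63, 8.3 and 8.47 in CH, and its part in the *CNN1* values was not tested. The 7 nerve and Schwann cell genes were all lower on average in BA, with a median of −0.25 and no gene clear of overlap.

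*HOXA9* and *HOXA10*, position genes of a *HOX* cluster, separated individual foetuses and not the breeds. The 11 tested *HOX* and limb genes had a median of −0.18. Of these, 4 were higher and 7 lower in BA, where 46.6% and 53.4% of all named genes were so. *HOXA10* read −1.37, −3.61 and 0.7 in BA and 3.78, 3.51 and −2.71 in CH, and *HOXA9* read 2.75, 2.23 and 3.84 in BA and 5.44, 4.98 and 1.9 in CH. Both genes were high in CH replicates 1 and 2 and low in CH replicate 3, and the SE of the *HOXA10* difference of −2.95 was 2.05. At 260 dpc the same gene ran from −2.64 to 3.76 among BA foetuses and from −4.27 to 4.26 among CH foetuses. How this spread relates to the muscle or the part of it that was sampled was not tested.

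To ask whether one breed was ahead in development, each array of 210 dpc was placed on the change from 180 to 260 dpc. The change was measured on the 15 arrays of the other stages, so that none of the arrays compared took part in it. It comprised 11068 probes (55% of those tested), 6036 rising and 5032 falling in both breeds. Among the named genes with the lowest p, *MYH1* rose by 6.77, *CKMT2* by 4.59, *TPM3* by 3.07, *SMYD2* by 2.7 and *ACTN4* by 2.52. In the other direction, *NNAT* (neuronatin) fell by 3.68, *MYMK* by 3.54, *SCG5* by 2.74, *GPC3* (glypican 3) by 2.22 and *CCND2* (cyclin D2) by 2.18. On this scale 0 is the mean at 180 dpc and 1 that at 260 dpc.

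The foetuses of both breeds lay interleaved on this scale. The BA foetuses lay at 0.354, 0.287 and 0.345 and the CH foetuses at 0.334, 0.288 and 0.356. The means were 0.329 ± 0.036 (SD, n = 3) and 0.326 ± 0.035 (SD, n = 3), a difference of 0.002 with a two-sided exact permutation p of 1, in a design that cannot give a p below 0.1. Single pairs of a BA and a CH foetus differed by −0.069 to 0.066, which is −5.5 to 5.3 days of the 80 days between the stages if the change were even in time. An even change would have put all foetuses at 0.375. Rising probes alone gave a difference of −0.007 (exact permutation p = 0.9) and falling probes alone 0.016 (exact permutation p = 0.9).

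**Figure D5:**
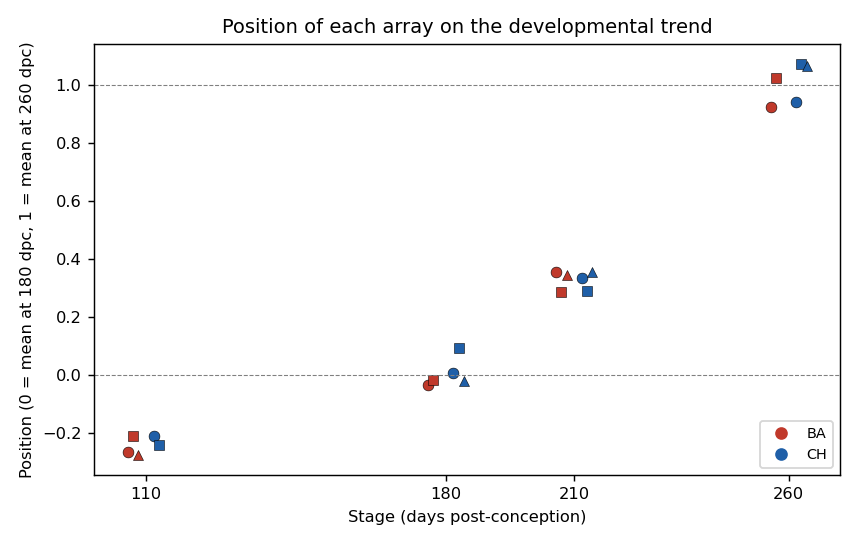
Position of each of the 21 arrays on the developmental trend (y axis, 0 = mean at 180 dpc, 1 = mean at 260 dpc) by stage in dpc (x axis), with BA in red and CH in blue and the shape of a point giving the replicate number. At 210 dpc the 6 foetuses lay between 0.287 and 0.356 with the breeds interleaved; the arrays of 180 and 260 dpc defined the scale.

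Counts of trend probes leaned towards the later stage in BA, whereas single trend genes pointed both ways. The counts were not tested. Of the rising probes, 3449 were higher in BA at 210 dpc and 2587 lower. Of the falling probes, 2198 were higher in BA and 2834 lower. The median shift towards the later stage was 0.024 in BA. Of the rising genes named above, *MYH1*, *CKMT2* and *TPM3* lay lower in BA on their trend probes (−0.95, −0.32 and −0.42, the last on another *TPM3* probe than above). *SMYD2* differed by −0.08 and *ACTN4* by 0.11. Of the falling genes *NNAT* lay higher, with 4.05, 4.15 and 3.71 in BA and 2.83, 3.98 and 3.21 in CH (0.63, unadjusted p = 0.0113). *MYMK* differed by 0.64, *GPC3* by 0.15, *CCND2* by 0.03 and *SCG5* by −0.16. Of the 26 probes apart between the breeds, 10 lay on the trend.

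Probes too dim for the filter were searched for genes seen in one breed. Well above background on all 3 BA arrays and on none of the 3 CH arrays were 8 of all 43653 probes (0.0183%), and 8 were so in the other direction (0.0183%). For these a fold is a bound, taken against the dimmest signal that counts as above background on the arrays of the other breed. *DPP4*, a cell surface peptidase, was at least 3.02-fold higher in BA, and *LOC617402* was at least 4.94-fold higher in CH. Their limma adjusted p over all probes were 0.84 and 0.49, and at 110 and 180 dpc both were above background on arrays of both breeds. At 260 dpc *DPP4* was above background on no array and *LOC617402* on 2 CH arrays.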

How the data were processed

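RNA of 21 foetuses was measured on single-colour bovine Agilent 4x44K arrays. The authors extracted spot intensity with Agilent Feature Extraction 10.7 (per the labels), with detrending. The methods of the study state normalization within and between arrays. The deposited values are in log2, and 99.98% of them were within 0.01 of the log2 of the processed intensity in the scanner files, so they carry no further scaling.

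Control spots and 258 outlier spot values were left out, spots of a probe were averaged, the array's 75th percentile was subtracted in log2 and 2.69 was added. This percentile was 652 to 1174 intensity units on the 6 arrays, whose number limits the precision. Accessions looked up in the ARS-UCD2.0 gene table named 26628 probes and 12538 genes. No positions are given, since the array design rests on an older assembly. A probe was tested if its mean exceeded 0 in at least 7 of 8 groups.

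The 8 groups of breed and stage were fitted on all 21 arrays with limma 3.58.1 in R 4.3.3 (with statmod 1.5.0, jsonlite 2.0.0 and version 1.17.8 of data.table; 13 residual and 3.79 prior degrees of freedom), with Benjamini-Hochberg adjustment over the 20132 tested probes. On simulated data for the breed difference at 210 dpc, 200 of 20052 probes were shifted. Of those shifted by 1, 85% were recovered, and of those shifted by 2, 96%, with 15 false calls. The simulated noise was independent between probes, and many shifted probes ease the adjustment for each one. These values are therefore not the share of real breed differences that this design would find. The labelled sexes were checked with *DDX3Y*, a Y-linked gene, which read 0.8 to 1.55 in the 8 males and −5.15 to −4 in the 13 females.

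The members and lists were chosen with earlier results of these data known. Lists were described by counts and medians over 1 probe a gene, the brightest tested over all arrays. Named genes are every *MSTN* probe, the named genes apart, up to 2 genes in each direction with the lowest p of each list described, 8 genes of fibres and metabolism that the study names, and 5 rising and 5 falling trend genes; a few others were added after their values were seen. A gene among those apart is not reported here. Replicate numbers do not pair the foetuses, since correlations of group-centred arrays were −0.077 to −0.003 for the 3 same-numbered pairs and −0.097 to 0.143 for the 6 others. Among the alternatives were normexp correction of the background (offset 50), scaling by quantiles or the median, the values as the authors deposited them, testing every probe or those detected, a term for sex, females alone, blocks of slide, scan day, replicate or sire, a trended and robust variance, the 6 arrays alone, each array left out, and other ways to set the trend.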

Additional observations from a re-analysis of the deposited data

How the results depend on the processing

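No probe was called at 210 dpc in the model used, with 1054 at an unadjusted p under 0.05. With other settings a few were, 5 with normexp background correction, quantile normalization or sire as a random block, 4 with median scaling, 3 with the filter on detection, the replicate block or the 6 arrays alone, 2 with the authors' value table, and 1 with no filter or a trended and robust variance. Leaving out 1 foetus gave 0 to 4. The difference against the other stages had 2 calls with females alone, which leaves 2 BA foetuses and 1 CH foetus, and 0 to 2 without 1 foetus. *MSTN* A_73_120254 passed with normexp background correction (1.96), median scaling (2.18), quantile normalization (2.21), the authors' value table (2.13), the replicate block (2.19) and sire as a random block (2.22). A_73_P036291 passed with the same settings (2.18, 2.36, 2.39, 2.31, 2.37 and 2.40) and with the 6 arrays alone (2.37). The replicate block, for numbers that pair no foetuses, changed no other call of a named gene. The lone foetus of an arm is assumed to vary like the other groups.

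The 26 probes apart became 154 with no filter (24 shared), 50 with the filter on detection (26 shared) and 93 with females alone (10 shared), and 27 to 80 without 1 foetus. The counts furthest from 26 came without CH replicate 1 (80), CH replicate 2 (56) and BA replicate 2 (43). With females alone the list medians were 0.27 for fast fibre, 0.06 for myostatin and activin (with *MSTN*), 0.04 for interferon, 0.05 for matrix, −0.34 for cell cycle, −0.31 for endothelial, −0.80 for smooth muscle, 0.09 for proteolysis and 0.25 for cytosolic ribosome genes. With slide as a block the adipocyte median was −0.22. Without 1 foetus the medians ranged from 0.07 to 0.38 for leukocyte, from −0.39 to −0.19 for adipocyte and from −0.63 to −0.04 for smooth muscle genes. Near 0, *MYH1* (on the probe with −0.01) turned sign with quantile normalization (0.01), sex as a covariate (0.04), scan day as a block (0.01), sire as a random block (0.01) and without 1 foetus (−0.10 to 0.12). *MYH3* turned with quantile normalization (−0.01), the authors' value table (−0.02) and without 1 foetus (−0.02 to 0.08), and *MYL4* with females alone (0.31). The trend difference was −0.036 with the 500 probes of lowest p, 0.036 with the authors' value table and −0.017 to 0.023 without 1 foetus. With the median over probes it was 0.034 (exact permutation p = 0.2). The causes of these shifts were not tested.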

Other observations

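Genes of stretch and injury stood high in CH replicate 3 at 210 dpc. They were chosen after their values were seen. This array was the only one of 210 dpc on its slide and scan day, and the part of these was not tested. *ANKRD1*, a stretch-responsive ankyrin repeat protein, read 2.97, 3.41 and 5.11 in BA and 6.82, 4.15 and 8.82 in CH on its brightest probe. *XIRP1*, an actin-binding protein that gathers at injured and remodelling fibre ends, read 4.69, 4.68 and 5.08 in BA and 5.09, 4.91 and 7.63 in CH. On the 15 arrays of the other stages *XIRP1* lay between 3.56 and 6.18, so that CH replicate 3 was above every other array of the series on this probe.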
